A study of Mus musculus with 6 samples.

Results

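The axon guidance genes of the semaphorin, slit, ephrin and netrin systems were described in lungs of mouse embryos. Members were the rows of the deposited table whose symbol belongs to the semaphorins of classes 3 to 7, the plexins, Slit1 to Slit3, Robo1 to Robo3, the ephrins, the Eph receptors, the netrins or the Unc5 receptors, 66 of 24341 rows in all. These were 20 semaphorins, 10 plexin rows, 3 slits, 3 robos, 8 ephrins, 14 Eph receptors, 4 netrins and 4 Unc5 receptors. One plexin row, Plxna4os1, is by its name an opposite-strand transcript of Plxna4 and not a plexin. Whole lungs had been taken at E12.5 on a C57BL/6 background, and 6 RNA-seq libraries had been made. The 3 mutant libraries came from Shh-Cre;Sin3a flox/flox embryos. The 3 control libraries came from Shh-Cre;Sin3a flox/+ embryos, which also carry the Cre and 1 floxed allele. Shh-Cre recombines in the endoderm, which forms the lung epithelium, while the libraries held RNA of epithelium, mesenchyme, vessels, nerves and blood together. The labels do not say whether libraries came from separate embryos or from pools, so p-values measure the spread between these libraries.

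Guidance molecules steer growing axons, vessels and migrating cells by attraction or repulsion. Semaphorins act on plexins, those of class 3 mostly through neuropilin co-receptors, and slits act on Robo receptors. Ephrins and Eph receptors are both bound to membranes and signal between touching cells, and netrins act through DCC, neogenin and Unc5 receptors. In the embryonic lung these families are expressed in mesenchyme, endothelium, epithelium and ingrowing nerves, and several of them are known to affect branching of the airways.

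Levels are FPKM, fragments per length of transcript and per size of the library, so levels of different genes can be compared per length. Read counts were not used here and absolute depth is unknown. Taking control library 1 as the unit of depth, the other libraries ranged from 0.50 (mutant library 1) and 0.53 (control library 3) to 1.28 (mutant library 2). Sin3a itself measured 18.6 to 19.5 FPKM in controls and 16.3 to 18.8 FPKM in mutants, a count over all exons and all lung cells that does not check the genotype. The summed level of 10 lung epithelial markers was 288 to 356 FPKM in controls and 78.5 to 113 FPKM in mutants. Of the 10, 8 fell. In these counts rose and fell mean an adjusted p under 0.05 by limma, reached by 3.34% of all tested genes. The summed level of 10 mesenchyme markers was 964 to 1187 FPKM in controls and 1403 to 1675 FPKM in mutants, where 4 rose and 2 fell. Most of this sum came from the collagen genes Col3a1 (379 and 605 FPKM in the control and mutant means), Col1a1 (176 and 311) and Col1a2 (168 and 287). The 2 that fell were Foxf1 (71.2 and 34.6 FPKM) and Wnt2 (87.5 and 49.4 FPKM), so the sum does not describe all mesenchyme markers. Sums of 9 endothelial markers were also apart (144 to 166 and 170 to 200 FPKM). So were those of 7 macrophage and leukocyte markers (106 to 135 and 174 to 229 FPKM). Of these markers 1 and 2 rose, while 8 of 9 and 7 of 7 log2 changes were positive, beside 48.7% of all tested genes. Sums of 11 neural crest and neuron markers, 33.2 to 67.7 FPKM in controls and 35.0 to 49.7 FPKM in mutants, overlapped. Smooth muscle (6 markers, 285 to 398 and 243 to 370 FPKM) and cartilage (5 markers, 30.8 to 33.0 and 28.1 to 35.7 FPKM) overlapped too, with 0 called. Mesothelial sums (5 markers, 144 to 167 and 181 to 188 FPKM) and erythroid sums (7 markers, 22148 to 42087 and 14215 to 17908 FPKM) were apart, with 1 that rose and 1 that fell. No marker of these lists was at the floor of the table in all libraries. The part of these shifts in the guidance gene results was not tested, and in whole tissue fewer cells of a type and less RNA per cell cannot be told apart.

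Of the 66 members, 51 passed the filter of a mean of at least 1 FPKM. The Eph receptor gene Epha3 rose in the mutant lungs, and it was the only member called at an adjusted p under 0.05 (limma on log2(FPKM + 1), Benjamini-Hochberg adjustment over 12742 genes). That is 1 of 51 (1.96%), beside 3.34% of all tested genes, or 1.71% for calls in the higher direction. An unadjusted p under 0.05 was reached by 12 members (23.5%), 11 higher and 1 lower, beside 23% of all tested genes (11.3% higher and 11.7% lower). Adjusted p-values under 0.10 were found for 6 higher and 1 lower member, beside 4.52% and 4.41% of all genes. Libraries of the groups did not overlap for 13 members (25.5%), 11 higher and 2 lower, beside 29.5% of all genes (14.9% and 14.6%). In either direction together, the shares at the adjusted p of 0.05, at the unadjusted p and without overlap were near or below the background. The share at an adjusted p under 0.10 was above it (7 of 51 members, beside 1138 of 12742 genes). By direction the shares were not even. At an unadjusted p under 0.05, 21.6% of the members were higher and 1.96% lower. At an adjusted p under 0.10, 11.8% were higher and 1.96% lower, and without overlap 21.6% and 3.92%. These shares are descriptions and were not tested against the background.

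The log2 changes of the 51 members ranged from -0.65 (Sema3e) to 0.91 (Sema3d), and none was beyond 1. Their median was 0.15, beside -0.0082 over all tested genes, and 37 of 51 changes (72.5%) were positive, beside 48.7% of all genes. The libraries were also rescaled to equal sums once globin and small RNA genes had been removed, which moved the median of all genes by 0.11. In these rescaled values 43 of 51 member changes were positive, beside 66.9% of all genes. Relative to the median of all genes the member median was 0.15 in the values as deposited, 0.13 in the rescaled values and 0.10 by quantile normalization, and 0.12 to 0.20 with 1 library left out (highest without mutant library 1). The rescaled values gave 8 members called higher (Epha3, Ephb1, Plxna4, Sema3d, Sema4g, Sema5b, Sema6c and Unc5c), beside 6.66% of all genes, and 4 were called higher without mutant library 1 (Epha3, Sema3d, Sema6c and Slit3), beside 2.84%. The 3 mutant libraries were not alike in this. Relative to the control mean, the median member stood at -0.00097 in mutant library 1, at 0.18 in mutant library 2 and at 0.22 in mutant library 3, while the median of all genes stood at 0.020, 0.0027 and -0.021.

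**Figure D1:**
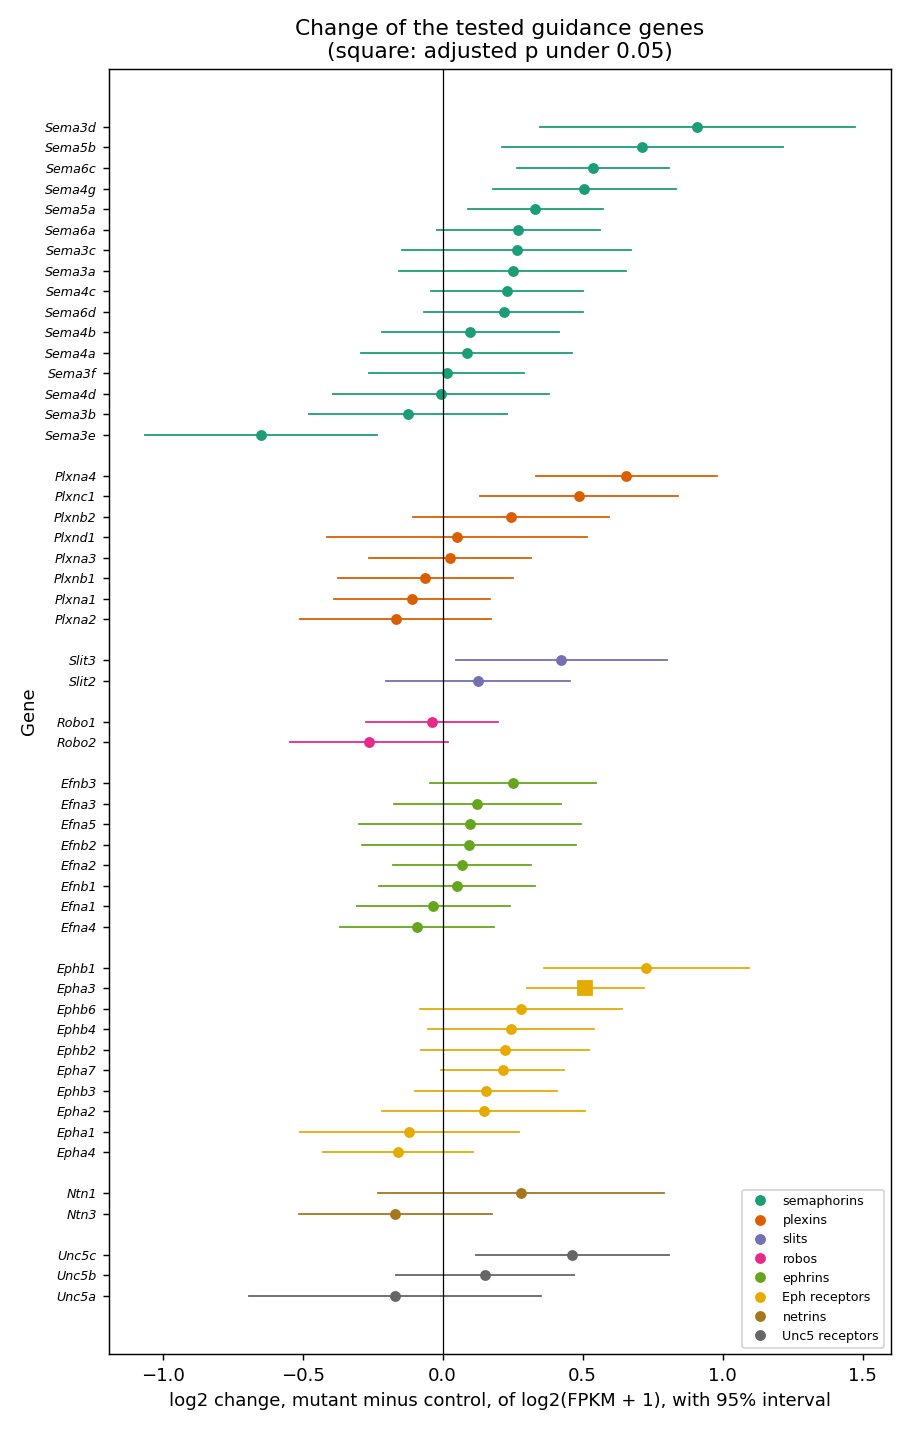
Log2 change (mutant minus control, x axis) of log2(FPKM + 1) with its 95% interval for the 51 tested guidance genes (y axis), coloured by family. Epha3, the square at 0.51, was the only member with an adjusted p under 0.05, and the extremes were Sema3d at 0.91 and Sema3e at -0.65.

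Eph receptors are receptor tyrosine kinases, in which the A class mostly binds ephrin-A and the B class ephrin-B ligands. Of 14 measured, 10 were tested, 1 rose and 0 fell, beside 3.34% of all tested genes called. Of the 10 log2 changes 8 were positive, beside 48.7% of all genes, with a median of 0.22 (0.34 in the rescaled values). Epha3, on chromosome 16 (chr16:63545218-63864157, GRCm38), was also the most abundant member of all, with a mean above that of 94.3% of all genes. Its level was 68.4, 71.8 and 64.9 FPKM in control libraries 1 to 3 and 105, 98.0 and 90.2 FPKM in mutant libraries 1 to 3. Every mutant library was above every control library. The means were 68.4 ± 3.42 and 97.8 ± 7.51 FPKM (SD, n = 3), a 1.43-fold rise with a log2 change of 0.51 (SE 0.09, 95% interval 0.30 to 0.72, adjusted p = 0.034 by limma). The size of the change was 0.42 to 0.64 over 14 other settings, but the call held in only 7 of them. The adjusted p ran from 0.0073 to 0.15 and was 0.12 without control library 1, 0.13 without control library 2, 0.12 without control library 3, 0.15 without mutant library 2, 0.11 without mutant library 1 and control library 3 together, 0.12 with the replicate number as a block and 0.051 with no intensity trend in the variance step.

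The second most abundant Eph receptor gene was Epha7, at 55.2, 53.5 and 53.2 FPKM in controls and 67.4, 65.3 and 56.1 FPKM in mutants. Its groups did not overlap, but the log2 change was only 0.21 (adjusted p = 0.22). Ephb1, a B class receptor gene of low level, measured 2.06, 1.76 and 1.28 FPKM in controls and 3.67, 2.94 and 3.76 FPKM in mutants. All mutant libraries exceeded all control libraries, a 2.03-fold difference of the means. Its log2 change of 0.73 (95% interval 0.36 to 1.09) missed the threshold narrowly (adjusted p = 0.054 by limma), and it passed in the rescaled values (adjusted p = 0.021) and with no intensity trend (0.049), while with 1 library left out its adjusted p was 0.065 to 0.17. The vascular receptor gene Ephb4 measured 38.0, 35.1 and 36.9 FPKM in controls and 36.5, 44.6 and 51.0 FPKM in mutants. Mutant library 1 lay within the control range for Ephb4, as it did for Ephb3 and Ephb6. Epha4 (log2 change -0.16) and Epha1 (-0.12) were the tested receptor genes with negative values, with adjusted p-values of 0.44 and 0.71. Epha2 was low, at 1.44 ± 0.313 and 1.69 ± 0.271 FPKM (SD, n = 3), and Ephb2 measured 5.94 ± 0.688 and 7.11 ± 0.864 FPKM.

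Ephrins, the membrane-bound ligands of these receptors, all passed the filter, and none was called. Limma gave 0 of 8 at an adjusted p under 0.05 and 0 of 8 at an unadjusted p under 0.05, and the groups overlapped for all 8. Over all tested genes these shares were 3.34% and 23%, and the groups did not overlap for 29.5%. Log2 changes ran from -0.09 in Efna4 to 0.25 in Efnb3, with a median of 0.08 (0.20 in the rescaled values). The 95% intervals of the 8 genes lay between -0.37 and 0.55, which leaves differences below about these sizes unresolved. Efna1 and Efna4, both linked to the membrane by a lipid anchor, were the most abundant. Efna1 measured 39.2, 32.8 and 33.2 FPKM in controls and 30.0, 37.5 and 35.4 FPKM in mutants. Its log2 change of -0.03 turned positive (0.094) in the rescaled values, and likewise by quantile normalization (0.0037). Efna4 measured 30.6, 31.6 and 32.2 FPKM in controls and 25.3, 29.5 and 34.2 FPKM in mutants, with mutant library 1 lowest and mutant library 3 highest of the 6 (log2 change 0.034 in the rescaled values). Among the transmembrane ephrins, Efnb1 stood at 25.6 ± 2.97 and 26.6 ± 2.65 FPKM, Efnb2, an arterial marker, at 12.0 ± 1.18 and 13.1 ± 3.14 FPKM, and Efnb3 at 8.39 ± 1.14 and 10.2 ± 1.01 FPKM (SD, n = 3 per group). Efna2, at 14.9 ± 0.761 and 15.8 ± 1.70 FPKM, shares its locus in the table with 48 other genes.

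Semaphorins were the largest family, with 20 members of which 16 were tested. Limma called 0 of them, while 6 (37.5%) had an unadjusted p under 0.05 (5 higher, 1 lower), beside 23% of all tested genes. An adjusted p under 0.10 was found for 3 higher and 1 lower, beside 4.52% and 4.41% of all genes. The median log2 change was 0.24 and 13 of 16 changes (81.2%) were positive, beside 48.7% of all genes, with a median of 0.36 in the rescaled values. Summed over the family, the level was 136, 129 and 138 FPKM in control libraries 1 to 3 and 213, 165 and 157 FPKM in mutant libraries 1 to 3. The class 3 genes, which encode secreted ligands, made up most of this sum. Sema3a, known as a repellent of axons, was the most abundant and measured 38.1, 35.5 and 41.3 FPKM in controls and 59.6, 44.3 and 36.0 FPKM in mutants. Mutant library 1 stood above all others for Sema3a and mutant library 3 lay within the control range (log2 change 0.25, adjusted p = 0.43). The log2 change of Sema3a was 0.062 without mutant library 1 and 0.42 without mutant library 3.

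Sema3d had the largest log2 change among the members but also a wide spread. It measured 20.0, 17.8 and 21.2 FPKM in control libraries 1 to 3 and 57.8, 31.8 and 29.0 FPKM in mutant libraries 1 to 3. All mutant libraries were above all control libraries, and mutant library 1 stood far above the other two. The means of 19.6 ± 1.71 and 39.5 ± 15.9 FPKM (SD, n = 3) differed 2.01-fold, with a log2 change of 0.91 (SE 0.24, 95% interval 0.35 to 1.47, adjusted p = 0.085). Without mutant library 1 the log2 change was smaller, 0.61, and its adjusted p was 0.037 (up to 0.26 with another library left out). Sema3c, a ligand known from heart outflow and vessels, showed the same high value in mutant library 1, at 34.3 FPKM against 23.8 and 21.4 FPKM in mutant libraries 2 and 3 and 19.6 to 23.7 FPKM in controls. Sema3f had nearly equal means, 11.1 ± 0.281 and 11.3 ± 1.68 FPKM (log2 change 0.01, 95% interval -0.26 to 0.29).

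Sema3e, the ligand of Plxnd1, had the lowest log2 change of the 51. It measured 2.32, 1.60 and 2.71 FPKM in controls and 1.30, 0.959 and 0.845 FPKM in mutants. The groups did not overlap and the means were 2.14-fold apart, but the call was missed (log2 change -0.65, SE 0.18, 95% interval -1.06 to -0.23, adjusted p = 0.092). Its receptor gene Plxnd1, which marks endothelium, measured 9.50, 6.35 and 9.09 FPKM in controls and 6.42, 10.0 and 9.62 FPKM in mutants. Plxnd1 was low in control library 2 and in mutant library 1, and its log2 change of 0.05 had an interval of -0.41 to 0.52.

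Sema3d, Sema3a and Sema3e are neighbours on chromosome 5, at chr5:12383166-12588943, chr5:13396784-13603485 and chr5:14025276-14256689 (GRCm38, loci of the table). Within this stretch the log2 changes were 0.91, 0.25 and -0.65, so values at both ends of the range of all members came from genes of 1 cluster. The bases before the RefSeq start sites of Sema3d and Sema3e, the members with the highest and the lowest log2 change, are shown with those of Epha3, the called member, because their base composition differs. Each line gives the 250 bases before the start on the strand of the gene (RefSeq, GRCm38.p6), with the dinucleotide CG in capitals.
Epha3 (chr16:63864176-63864425, minus strand): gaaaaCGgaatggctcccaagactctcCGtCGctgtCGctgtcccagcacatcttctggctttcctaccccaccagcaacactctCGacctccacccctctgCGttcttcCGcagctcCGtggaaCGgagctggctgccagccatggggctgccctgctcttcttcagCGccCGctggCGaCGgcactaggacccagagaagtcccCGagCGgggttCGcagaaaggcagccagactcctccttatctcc
Sema3d (chr5:12382916-12383165, plus strand): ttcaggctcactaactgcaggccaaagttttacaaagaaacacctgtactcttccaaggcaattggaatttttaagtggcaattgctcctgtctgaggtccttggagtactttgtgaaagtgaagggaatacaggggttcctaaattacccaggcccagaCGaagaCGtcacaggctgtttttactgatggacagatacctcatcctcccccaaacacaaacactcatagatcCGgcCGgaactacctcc
Sema3e (chr5:14025026-14025275, plus strand): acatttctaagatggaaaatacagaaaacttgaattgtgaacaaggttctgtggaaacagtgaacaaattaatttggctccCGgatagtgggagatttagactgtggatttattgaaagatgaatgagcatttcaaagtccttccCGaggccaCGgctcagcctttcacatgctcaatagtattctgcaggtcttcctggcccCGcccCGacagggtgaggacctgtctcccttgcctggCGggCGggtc
The window of Epha3 holds 16 CG and 62.8% G and C bases, close to the medians of 15.5 CG and 64.4% over 72 such windows of 56 members. The windows of Sema3d and Sema3e hold only 4 and 7 CG, at 46.8% and 48% G and C. Low values are not particular to these 2 genes. The window of Sema3a, which lies between them, holds 2 CG at 40.8%, and its log2 change was 0.25. In GENCODE M21 the gene model of Sema3a starts upstream of that window, at chr5:13125414, so the window may not be its only start. Over the windows of all tested genes in the RefSeq table, 12281 in number, the medians were 16 CG and 60%. These are descriptions of the sequence and no test of it was made.

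The transmembrane semaphorins of classes 4, 5 and 6 act at short range and partly as receptors themselves. Sema6c had the clearest difference among them, at 6.68, 6.63 and 6.86 FPKM in controls and 8.76, 10.6 and 11.4 FPKM in mutants. The control libraries were nearly equal and all mutant libraries were higher, 1.53-fold in the means, with a log2 change of 0.54 (SE 0.12, 95% interval 0.26 to 0.81, adjusted p = 0.055). Without mutant library 1 Sema6c passed the threshold (adjusted p = 0.030), as it did in the rescaled values (0.025), and in no other of the 14 settings. Its adjusted p reached 0.21 without mutant library 2. Sema4g measured 1.08, 1.52 and 1.20 FPKM in controls and 2.37, 2.32 and 1.96 FPKM in mutants, which did not overlap (1.75-fold, adjusted p = 0.093). Sema5b measured 1.82, 1.93 and 0.836 FPKM in controls and 2.56, 3.76 and 2.95 FPKM in mutants, with control library 3 lowest (2.02-fold, adjusted p = 0.11). Its paralog Sema5a was tighter, at 3.51 ± 0.160 and 4.68 ± 0.111 FPKM (SD, n = 3), again with no overlap (log2 change 0.33, adjusted p = 0.12). Sema6a (log2 change 0.27), Sema4c (0.23) and Sema6d (0.22) had positive values with adjusted p-values of 0.25 to 0.33. Sema4a, Sema4b, Sema4d and Sema3b were at 1.18 to 1.54 FPKM over the 6 libraries, with log2 changes between -0.12 and 0.10.

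**Figure D2:**
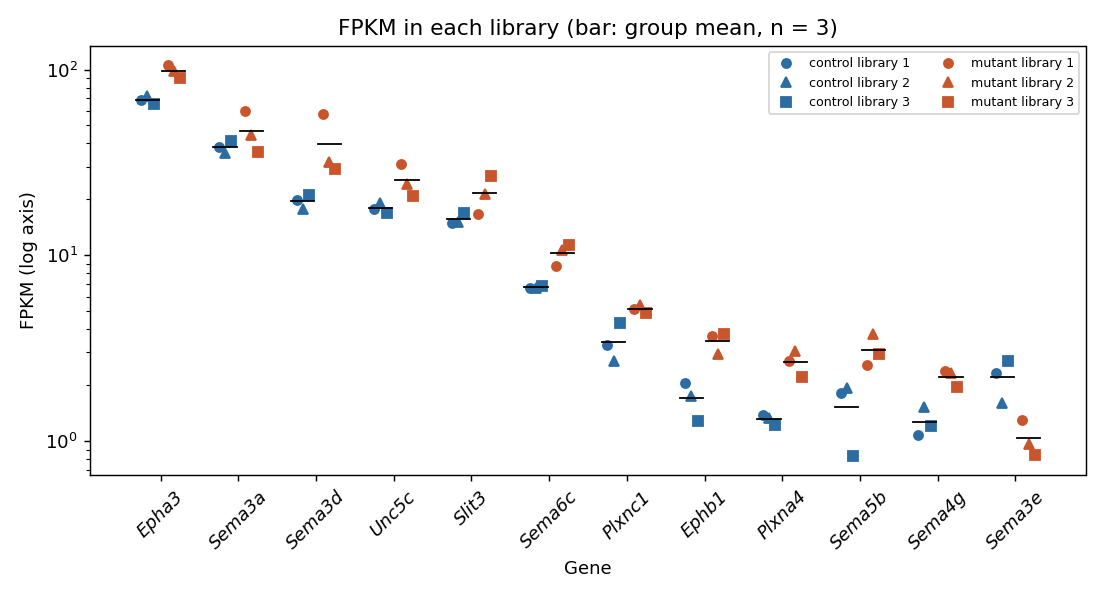
FPKM on a log axis (y) of 12 guidance genes (x) in each of 3 control and 3 mutant libraries, with a bar at each group mean. Mutant library 1 (circle) was the highest for Sema3d, at 57.8 FPKM, and the lowest of the mutant libraries for Slit3, at 16.8 FPKM.

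Plexins, the receptors of semaphorins, held 8 tested genes, and limma called 0 of them. An unadjusted p under 0.05 was reached by 2 (25%), beside 23% of all tested genes. The median log2 change was 0.04, or 0.15 in the rescaled values, and it turned negative without control library 2 (-0.028) or mutant library 3 (-0.049). Plxna4, a receptor of class 3 and class 6 semaphorins, measured 1.38, 1.33 and 1.22 FPKM in controls and 2.70, 3.06 and 2.21 FPKM in mutants. The groups did not overlap and the means differed 2.03-fold, with a log2 change of 0.66 (SE 0.14, 95% interval 0.33 to 0.98) and an adjusted p of 0.051 by limma, just over the threshold. With 1 library left out the adjusted p was 0.048 (without mutant library 3) to 0.17. The row Plxna4os1 has the same locus in the table and also did not overlap, at 0.270, 0.210 and 0.127 FPKM in controls and 0.335, 0.871 and 0.406 FPKM in mutants. The libraries do not mark strand, and in GENCODE M21 no exon of Plxna4os1 overlaps one of Plxna4. The gene model of Plxna4os1 (chr6:32511073-32515576) does lie within that of Plxna4 (chr6:32144268-32588192). Fragments from introns of Plxna4 therefore cannot be told apart from it. Plxnc1, the receptor of Sema7a, measured 3.28, 2.69 and 4.31 FPKM in controls and 5.12, 5.39 and 4.89 FPKM in mutants (1.50-fold, adjusted p = 0.12). Sema7a, its lipid-anchored ligand, was under the filter at 0.130, 0.0917 and 0.0699 FPKM in controls and 0.219, 0.289 and 0.294 FPKM in mutants, again without overlap and with no test. Plxnb2 was the most abundant plexin, at 40.5, 39.8 and 44.9 FPKM in controls and 42.4, 45.7 and 62.8 FPKM in mutants, where mutant library 3 stood alone (adjusted p = 0.37). Plxna1, Plxna2, Plxna3 and Plxnb1 had log2 changes from -0.17 to 0.03 and overlapping groups.

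Slits are secreted repellents and Robo proteins their receptors. Slit3 was the most abundant slit, at 15.0, 15.0 and 16.9 FPKM in controls and 16.8, 21.5 and 26.7 FPKM in mutants. Mutant library 1 lay within the control range and the other mutant libraries above it (1.39-fold, log2 change 0.42, 95% interval 0.05 to 0.80, adjusted p = 0.17). Of 14 other settings, Slit3 passed only without mutant library 1 (log2 change 0.59, adjusted p = 0.045). Its log2 change was 0.27 without mutant library 3, and its adjusted p reached 0.39 without control library 2. Slit2 measured 5.52, 5.26 and 5.72 FPKM in controls and 5.05, 7.46 and 5.96 FPKM in mutants (adjusted p = 0.64). The receptor gene Robo1 measured 9.62, 8.86 and 8.88 FPKM in controls and 8.59, 8.32 and 9.70 FPKM in mutants, with a log2 change of -0.04, or 0.080 in the rescaled values. Robo2, which lies beside Robo1 on chromosome 16, measured 4.21, 4.41 and 3.85 FPKM in controls and 2.89, 3.67 and 3.35 FPKM in mutants. Its groups did not overlap (log2 change -0.26, 95% interval -0.55 to 0.02, adjusted p = 0.25), and with Sema3e it was one of the 2 members for which the mutant libraries were all lower. Limma called 0 of 2 tested slits and 0 of 2 tested robos. At an unadjusted p under 0.05 there were 1 and 0, beside 23% of all tested genes.

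Netrins are laminin-related secreted proteins, and Unc5 receptors carry their repellent signal. Unc5c measured 17.7, 19.2 and 16.9 FPKM in controls and 31.1, 24.4 and 20.8 FPKM in mutants. All mutant libraries were higher, with mutant library 1 farthest (1.42-fold, log2 change 0.46, SE 0.15, 95% interval 0.12 to 0.81, adjusted p = 0.12). In the rescaled values its adjusted p was 0.041, and with 1 library left out 0.068 to 0.30. Unc5b, a receptor gene of vessels, measured 4.43, 5.61 and 4.40 FPKM in controls and 4.71, 5.56 and 6.08 FPKM in mutants, which overlapped. Unc5a stood at 1.67 ± 0.468 and 1.40 ± 0.648 FPKM (SD, n = 3). Of the tested ligand genes Ntn1 was low, while the mean of Ntn3, 5.62 FPKM over the 6 libraries, was above that of 62.9% of all genes. The row of Ntn3 shares its locus in the table with 1 other gene. In GENCODE M21, exons of Tbc1d24 on the same strand overlap 1.74% of the exon bases of Ntn3. Ntn3 measured 7.43, 5.33 and 5.33 FPKM in controls and 5.03, 4.80 and 5.80 FPKM in mutants (log2 change -0.17, adjusted p = 0.53, or -0.031 without control library 1), and Ntn1, the founding netrin, 1.31, 0.593 and 1.62 FPKM and 1.91, 1.20 and 1.70 FPKM (adjusted p = 0.48). Limma called 0 of 2 netrins and 0 of 3 Unc5 receptors. At an unadjusted p under 0.05 there were 0 and 1, beside 23% of all tested genes.

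**Figure D3:**
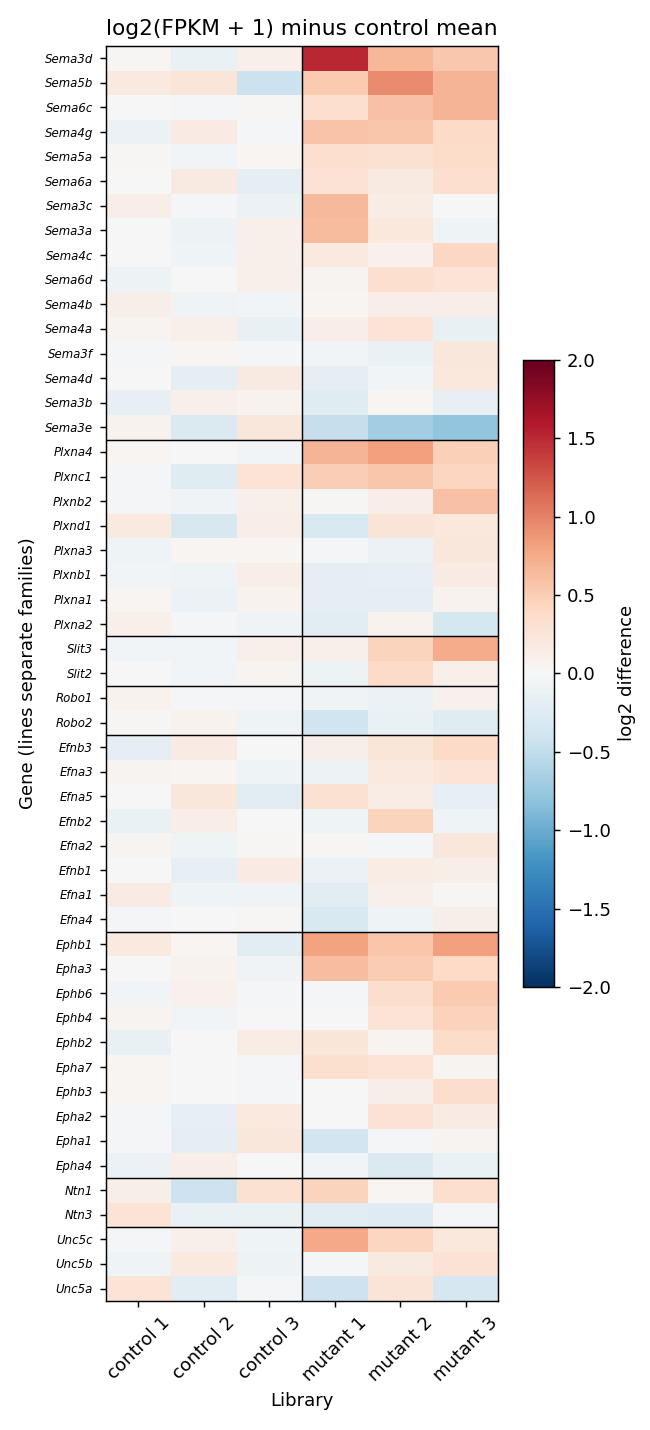
Log2(FPKM + 1) of the 51 tested guidance genes (y axis, by family) in each library (x axis), minus the mean of the 3 control libraries. Sema3d in mutant library 1 is the darkest cell, and mutant library 1 is paler than the other mutant libraries for Slit3, Ephb4 and Ephb6.

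The order of levels was steep. Over the 6 libraries the mean was 83.1 FPKM for Epha3, 58.5 for Epha7, 46.0 for Plxnb2, 42.4 for Sema3a and 40.4 for Ephb4. Each pair of neighbours in that order had overlapping ranges across libraries. Summed over families, Eph receptors measured 206 to 211 FPKM in controls and 261 to 263 FPKM in mutants, which did not overlap, and Epha3 made up most of the gap. Sums of ephrins, the ligands, overlapped, at 134 to 139 FPKM and 125 to 148 FPKM. Slits measured 20.4 to 22.6 FPKM and 21.9 to 32.7 FPKM and Robo genes 12.8 to 13.9 FPKM and 11.5 to 13.1 FPKM, both overlapping. Unc5 receptors measured 22.9 to 26.2 FPKM and 28.1 to 36.9 FPKM, without overlap. Plexins (73.2 to 84.9 and 77.9 to 105 FPKM) and netrins (6.75 to 9.94 and 6.89 to 8.44 FPKM) overlapped. These sums rest on their most abundant genes and were not tested.

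**Figure D4:**
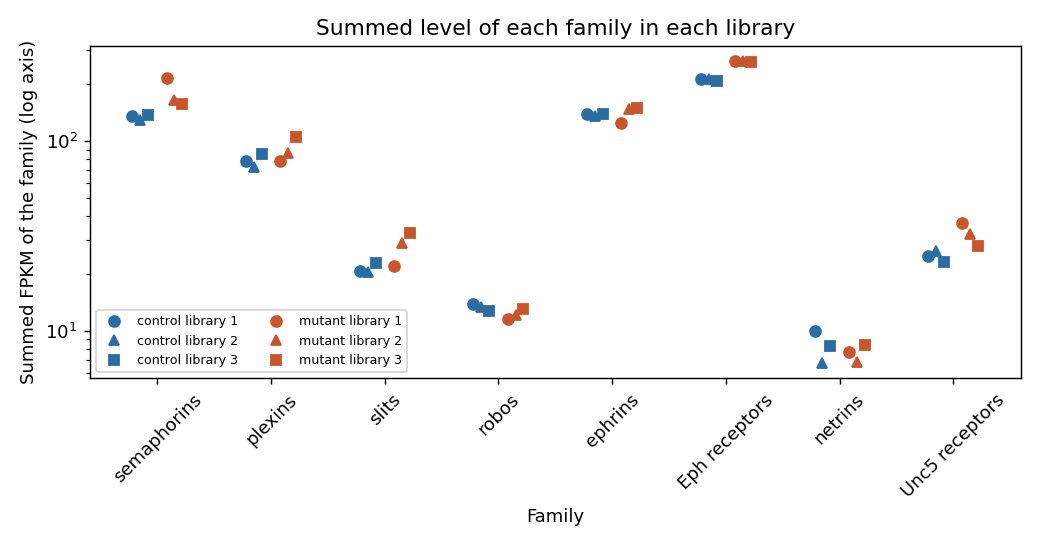
Summed FPKM (y axis, log scale) of each of 8 guidance families (x axis) in each of 3 control and 3 mutant libraries, without Plxna4os1. Eph receptors are close within each group, at 206 to 211 FPKM in controls and 261 to 263 FPKM in mutants, while semaphorins spread from 157 to 213 FPKM among the mutant libraries.

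The 15 members under the filter were Epha5, Epha6, Epha8, Epha10, Ntn4, Ntn5, Plxna4os1, Plxnb3, Robo3, Sema3g, Sema4f, Sema6b, Sema7a, Slit1 and Unc5d. None was at the floor of 0.01 FPKM in any library. Epha5 was the nearest to the filter, at 0.849, 0.753 and 0.774 FPKM in controls and 1.33, 1.20 and 0.931 FPKM in mutants, with no overlap. Sema4f (0.952 FPKM over the 6 libraries), Ntn4 (0.857), Sema6b (0.754) and Sema3g (0.605) had overlapping groups. Epha6, Epha8, Epha10, Ntn5, Plxnb3, Robo3, Slit1 and Unc5d were at 0.0579 to 0.239 FPKM over the 6 libraries. Values at this level rest on few fragments, more so in the shallow mutant library 1 and control library 3. Groups did not overlap for Epha5, Sema7a and Plxna4os1, but this was not tested and no difference is read from it. The share without overlap among all genes under the filter was not counted.

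Partners of the families were taken as 4 lists of co-receptors and signalling genes. Of 18 tested genes of semaphorin signalling 1 rose (5.56%), beside 3.34% of all tested genes called, or 1.71% in the higher direction. It was Rras, a small GTPase on which plexins act. Rras measured 37.9, 31.4 and 32.7 FPKM in controls and 47.2, 54.8 and 49.2 FPKM in mutants (adjusted p = 0.038 by limma, log2 change 0.56, SE 0.10). Its adjusted p was 0.039 to 0.17 with 1 library left out, and the call ended without any of the 3 control libraries, mutant library 2 or mutant library 3. Mical3, which acts on actin, measured 1.86, 1.74 and 1.76 FPKM in controls and 3.33, 2.54 and 3.01 FPKM in mutants (adjusted p = 0.078). The co-receptor genes Nrp1 and Nrp2 measured 19.1 and 11.5 FPKM in the control mean and 22.2 and 14.0 FPKM in the mutant mean (adjusted p = 0.31 and 0.27). The list had 3 genes (16.7%) at an unadjusted p under 0.05, beside 23% of all tested genes, and a median log2 change of 0.09.

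Limma called 0 of 11 tested genes of netrin signalling, with 5 (45.5%; 3 higher and 2 lower) at an unadjusted p under 0.05, beside 23% of all tested genes, and a median of 0.13. Ntng1, which encodes the lipid-anchored netrin-G1, measured 1.60, 2.53 and 1.77 FPKM in controls and 1.02, 1.16 and 1.25 FPKM in mutants (adjusted p = 0.15). Flrt3, a gene of a membrane protein that binds Unc5 receptors, measured 24.3, 25.0 and 23.9 FPKM and 35.6, 35.6 and 25.9 FPKM (adjusted p = 0.15), and passed only without mutant library 3 (0.031) or in the rescaled values (0.047), with an adjusted p of up to 0.39 when another library was left out. The netrin receptor gene Dcc was under the filter, at 0.652 FPKM in the control mean and 0.982 FPKM in the mutant mean. In slit and Robo signalling 0 of 11 were called, with 2 (18.2%) at an unadjusted p under 0.05. These were Nell1, at 2.65, 5.06 and 3.38 FPKM and 7.35, 6.10 and 5.81 FPKM (adjusted p = 0.10), and the syndecan gene Sdc1, at 50.3, 47.8 and 56.1 FPKM and 35.8, 40.4 and 43.9 FPKM (adjusted p = 0.11). In ephrin and Eph signalling 0 of 13 were called, with 2 (15.4%) at an unadjusted p under 0.05, the exchange factor gene Kalrn (2.86 and 4.38 FPKM in the group means, adjusted p = 0.11) and the chimaerin gene Chn2 (8.37 and 10.3 FPKM, adjusted p = 0.16). The medians of these 2 lists were 0.07 and 0.04.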

How the data were processed

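RNA-seq had been done on 6 whole-lung libraries at E12.5, 3 per genotype. The deposited values are FPKM per gene, made by the authors with TopHat, Bowtie2 and Cufflinks on mm10 (GRCm38), per the submitters' processing notes. The sources used here give no versions, tool roles or annotation. A value of 0.01 FPKM stands at the floor, and 3 genes with a failure mark in mutant library 1 were left out. Absolute depth is unknown. Relative depth was taken from the most common ratio of values up to 0.3 FPKM. Per the labels' protocols the SMARTer Ultra Low Input kit was used, which does not mark strand.

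Here, log2(FPKM + 1) of 12742 genes averaging 1 FPKM or more was compared by limma 3.58.1 (R 4.3.3) with an intensity trend, 2-sided, with Benjamini-Hochberg adjustment over all tested genes. A gene was called at an adjusted p under 0.05. The log2 change understates changes of low genes, so ratios of mean FPKM stand beside it. The fit was tested on simulated data. Values per library were given for called members and, in each family, the 2 most abundant and the 2 with the smallest p; in the partner lists for called genes and the 2 with the smallest p. Other genes were named for their role or count after their values were seen. The members and lists were chosen with earlier results of these data known. Promoters are from RefSeq (GRCm38.p6), where 56 of 66 members matched, and exons from GENCODE M21. Alternatives were another pseudocount, other filters, 2 scalings (quantile normalization, and rescaling to equal sums without globin and small RNA genes), no trend, a replicate block, a threshold of 0.10 and leaving out each library. Plots were drawn with Python 3.11.15 and matplotlib 3.10.9.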

Additional observations from a re-analysis of the deposited data

How the results depend on the processing

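Depth is unknown and there were 3 libraries a group, and standard errors of the members ran from 0.09 to 0.24 on the log2 scale. The number of guidance genes called higher, 1 as reported, was 8 in the rescaled values (beside 6.66% of all genes), 2 with no intensity trend, 0 without the 2 shallowest libraries (chosen after seeing the data), 6 at an adjusted p under 0.10 and 0 to 4 with 1 library left out (4 without mutant library 1: Epha3, Sema3d, Sema6c and Slit3). The number called lower was 0, and 1 at an adjusted p under 0.10. For all genes, 218 higher and 208 lower as reported, the higher counts were 576 at an adjusted p under 0.10, 105 with no filter, 841 in the rescaled values, 17 without the 2 shallowest libraries and 17 to 362 with 1 library left out. The lower counts were 562 at an adjusted p under 0.10, 138 at a mean of at least 5 FPKM, 137 with no filter, 38 without the 2 shallowest libraries and 35 to 433 with 1 library left out. The replicate numbers did not pair the libraries: same-numbered libraries had correlations of -0.089, -0.078 and -0.026, and none correlated best with its own number. With a replicate block 0 guidance genes were called, and 20 genes higher and 32 lower overall.

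In the rescaled values, family medians were 0.34 (Eph receptors), 0.20 (ephrins), 0.15 (plexins), -0.040 (robos), 0.36 (semaphorins) and 0.26 (Unc5 receptors). Without the 2 shallowest libraries they were 0.31 (Eph receptors), 0.19 (plexins), 0.17 (semaphorins) and 0.45 (slits). At a mean of at least 5 FPKM they were -0.17 (netrins, 1 gene), -0.038 (robos, 1 gene), 0.26 (semaphorins) and 0.31 (Unc5 receptors), and with no filter -0.038 (robos) and 0.045 (Unc5 receptors). With 1 library left out they were 0.14 to 0.25 (Eph receptors), 0.19 to 0.29 (semaphorins), 0.035 to 0.11 (ephrins), -0.049 to 0.14 (plexins), 0.20 to 0.41 (slits), -0.18 to -0.11 (robos), -0.084 to 0.15 (netrins) and 0.081 to 0.25 (Unc5 receptors). Plexins turned negative without control library 2 or mutant library 3, and netrins without control library 2 and, at -0.028, with no filter. Signs turned in the rescaled values in Efna1 (0.094), Efna4 (0.034) and Robo1 (0.080), by quantile normalization in Efna1 (0.0037), and without the 2 shallowest libraries in Efna1 (0.021) and Efna4 (0.030). With 1 library left out, log2 changes ran from -0.099 to 0.057 in Efna1, -0.20 to 0.014 in Efna4, -0.11 to 0.23 in Plxnd1, -0.097 to 0.0023 in Robo1 and -0.0015 to 0.24 in Slit2. The cause of these shifts was not tested.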

Other observations

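Members with gaps of at most 1000000 bases formed 7 neighbourhoods of 17 genes, of which 5 held more than 1 tested gene. In 1 of these 5, Robo1 and Robo2 on chromosome 16, the log2 changes had the same sign (-0.04 and -0.26), and in the other 4 the signs were mixed. The ephrin genes Efna1, Efna3 and Efna4 lie in 1 stretch of chromosome 3 and had log2 changes of -0.03, 0.12 and -0.09, none of them called. Sema3b and Sema3f lie side by side on chromosome 9, at 1.18 and 11.2 FPKM over the 6 libraries, with log2 changes of -0.12 and 0.01. On chromosome 4, Ephb2 had a log2 change of 0.22 beside Epha8, which was under the filter.

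The 250 bases before each RefSeq start were searched on both strands for CACGTG, the E-box bound by MAX and its partners, and for GACCACCCA, a site of GLI factors. The E-box was in 4 of 72 member windows (5.56%), those of Epha8, Robo2, Sema4b and Sema6d, beside 6.02% of all 32851 windows. The E-box itself holds a CG, and all windows are poorer in CG (median 6) than those of the members (15.5). Among tested genes it was in 3 of 59 member windows (5.08%), beside 8.28% of 12281 windows. The GLI site was in 0 of 72, beside 0.225% of all windows. No match says only that these letters are not in these windows.

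In GENCODE M21, exons of the other strand overlapped 23.4% of the exon bases of Ntn5, which was under the filter. The share was 14.1% in Efna3, 10.7% in Plxna1, 10.5% in Efna4, 7.27% in Sema4c, 6.01% in Epha1 and 2.17% in Ephb1. For Plxna4 it was 0.78%, and for Epha3 and Sema6c no such overlap was found. Exons of other genes on the same strand overlapped 1.74% of the exon bases of Ntn3, 1.38% of those of Plxnc1 and 1.35% of those of Sema4a.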
